A study of Mus musculus with 12 samples.

Results

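The genes described here are a list of 34 that code for enzymes of cholesterol synthesis, the regulators of the SREBP transcription factors, enzymes of fatty acid synthesis and desaturation, and exporters of sterol. They were found by symbol among the 30705 gene names of the expression table, and all 34 were found. One member, *Abcg1*, was listed at 0 in every sample, so 33 had values, and these 33 also passed the filter of a mean of at least 1 RPKM (reads scaled to gene length and to the size of the library) that 11282 genes passed.

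RNA was sequenced from 12 samples of murine BrafV600E melanoma cells, in 4 groups of 3. Scramble cells were the control. With CRISPR/CAS9 the gene of COX-1 had been knocked out in *ptgs1*-KO cells, that of COX-2 in *ptgs2*-KO cells, and that of mPGES-1 in *ptges*-KO cells. Both COX enzymes act on arachidonic acid, and mPGES-1 makes prostaglandin E2 from their product. All 4 groups, the scramble cells included, came from a line of a C57BL/6 mouse of the genotype Braf+/LSL-V600E;Tyr::CreERT2+/o;p16INK4a-/-, in which the tyrosinase promoter drives the Cre recombinase, and all were cultured with fetal bovine serum. Edited cells were selected with puromycin and subcloned by limiting dilution. A legend of the paper describes the samples of a line as different subclones, and its results text as independent samples. Differences between lines can therefore hold differences between clones, which cannot be told apart from the knockout.

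Each targeted gene was lowest in the line named for it. *Ptgs1* was 14.3 to 16.9 RPKM in *ptgs1*-KO and 138 to 173 in the other samples. *Ptgs2* was 76.1 to 84.6 RPKM in *ptgs2*-KO, 502 to 668 in *ptgs1*-KO, 715 to 807 in *ptges*-KO, and 749 to 777 in scramble cells. *Ptges* was 34.8 to 41.0 RPKM in *ptges*-KO cells, 51.5 to 56.9 in *ptgs1*-KO, 63.4 to 69.4 in *ptgs2*-KO, and 75.0 to 79.8 in scramble cells. Of the melanocyte markers, *Sox10*, *Mlana*, *Dct*, and *Tyrp1* were listed at 0 in all 12 samples, and *Mitf* had group means of 1.75 to 2.68 RPKM. *Tyr* and *Pmel* were low but above 0 in every sample, at 0.29 to 1.29 and 0.19 to 0.92 RPKM. The label of melanoma therefore rests on the origin of the line and not on these markers. Read counts were not part of the table, and an estimate from the steps between low values gave 13.4 to 17.1 M reads per sample.

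Cells make cholesterol from acetyl-CoA through mevalonate, squalene, and lanosterol. The genes of this route are switched on together by SREBP-2 when membrane sterol is low, because the escort protein SCAP then carries the SREBPs to the Golgi, while INSIG proteins hold SCAP back when sterol is plentiful. SREBP-1 acts more on fatty acid synthesis, and its gene is also a target of the sterol-sensing liver X receptors, which raise the exporters ABCA1 and ABCG1. Growing tumor cells need both lipid classes for new membranes.

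The sequence that precedes 3 members is shown because they stand for the 3 branches of the list, cholesterol synthesis (*Hmgcs1*), fatty acid synthesis (*Fasn*), and export (*Abca1*). Each is the 150 bases before the RefSeq start of transcription on GRCm38.p6, 5′ to 3′ on the strand of the gene. Capitals mark matches, on either strand, to a sterol regulatory element (TCACNCCAC), a CCAAT box (CCAAT), or an E-box (CACGTG). *Hmgcs1* lies on the plus strand, and its window is chr13:119690201-119690350. *Fasn* and *Abca1* lie on the minus strand, with windows at chr11:120824548-120824697 and chr4:53159896-53160045.
Hmgcs1: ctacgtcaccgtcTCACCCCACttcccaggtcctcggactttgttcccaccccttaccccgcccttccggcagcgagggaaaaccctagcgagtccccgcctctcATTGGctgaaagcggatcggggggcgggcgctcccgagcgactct
Fasn: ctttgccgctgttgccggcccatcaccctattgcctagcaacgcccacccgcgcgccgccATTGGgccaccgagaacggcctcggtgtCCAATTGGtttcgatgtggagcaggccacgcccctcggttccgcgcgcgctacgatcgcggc
Abca1: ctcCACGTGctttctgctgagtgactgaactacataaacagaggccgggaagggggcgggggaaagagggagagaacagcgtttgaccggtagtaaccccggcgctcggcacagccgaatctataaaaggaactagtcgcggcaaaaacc

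The *Hmgcs1* window held 1 sterol regulatory element and 1 CCAAT box, the *Fasn* window held 3 CCAAT matches of which 2 overlap, and the *Abca1* window held 1 E-box. In the full RefSeq windows, which run from 250 bases before the start to 50 after it, 26 of the 34 members had an entry. *Scd1*, *Scd2*, *Fads1*, *Stard4*, *Fdps*, *Sqle*, *Fdft1*, and *Abcg1* had none. A CCAAT box was in the windows of 20 of these 26 genes and in 61.8% of their windows, against 38.5% of the windows of all genes tested. The GC box GGGCGG was in 76.5% of the members' windows and 65.2% of those of genes tested, and the E-box in 20.6% and 10.4%. The sterol regulatory element in the spelling above was found in *Hmgcs1* alone, or 2.94% of the members' windows and 1.14% of those of genes tested. A match is a run of letters and not a measured binding site.

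Against scramble cells, *ptges*-KO cells had the largest number of these genes at a lower level. In *ptges*-KO cells 17 of the 33 members with values were lower and 0 were higher, by limma on log2(RPKM + 1), with p adjusted over the whole table after Benjamini-Hochberg and a threshold of 0.05. At an unadjusted p under 0.05, 25 were lower and 1 higher. The background was 14.4% of all genes tested called lower and 11.9% called higher. The 17 genes covered each role, from the sterol enzymes *Lss*, *Cyp51*, *Tm7sf2*, and *Dhcr7* to the regulators *Srebf1* and *Insig1*, the fatty acid genes *Fasn* and *Elovl6*, and the exporter *Abca1*. In RNA of whole cultures, fewer cells with a transcript and less of it per cell cannot be told apart. The median log2 fold change of the 33 members was -0.35, against -0.03 over all genes tested, and 30 of the 33 were below 0 (54.2% of all genes tested). In 23 of the 33 (69.7%) all *ptges*-KO samples lay below all scramble samples, against 23% of all genes tested. The summed level of the list was 3601 to 4438 RPKM in *ptges*-KO and 4583 to 4780 in scramble cells, so these samples did not overlap, but *ptgs1*-KO (4039 to 4879) and *ptgs2*-KO samples (4324 to 4900) overlapped with both.

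**Figure D1:**
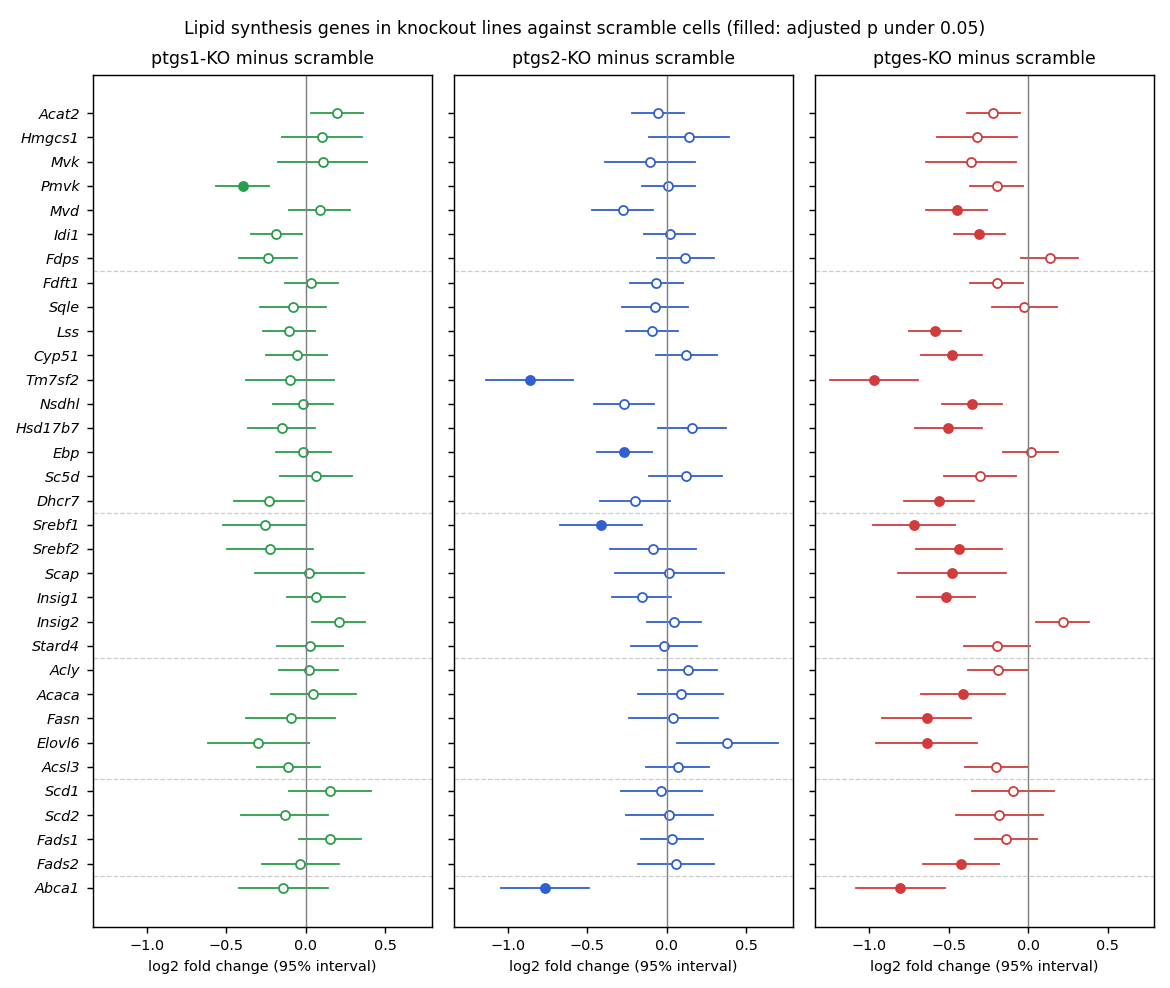
Log2 fold change of the 33 members with values in each knockout line against the same scramble cells, with the 95% interval from limma, on log2(RPKM + 1). Genes are ordered by role, filled points have an adjusted p under 0.05, and 17 points are filled for *ptges*-KO, 4 for *ptgs2*-KO, and 1 for *ptgs1*-KO, all of them below 0.

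Of the 7 genes from acetyl-CoA to farnesyl diphosphate, 2 were lower in *ptges*-KO cells. *Mvd*, which makes isopentenyl diphosphate, was 24.4, 23.0, and 22.3 RPKM in *ptges*-KO and 32.1, 30.1, and 34.1 in scramble cells. The groups did not overlap, and the log2 fold change was -0.45 ± 0.09 (SE, n = 3 and 3), with an adjusted p of 0.00289 by limma. *Idi1*, the isomerase of the same route, fell by 0.31 on the log2 scale (adjusted p = 0.00923 by limma), from 83.0 to 86.9 RPKM in scramble to 65.0 to 72.4 in *ptges*-KO cells. *Hmgcs1*, the synthase that makes HMG-CoA and whose window is printed above, was 109, 91.2, and 82.5 RPKM in *ptges*-KO cells and 125, 98.1, and 131 in scramble cells. Here *ptges*-KO replicate 1 lay above scramble replicate 2, and the log2 fold change of -0.32 had an adjusted p of 0.0584 by limma. *Acat2*, *Mvk*, and *Pmvk* had log2 fold changes of -0.22, -0.36, and -0.20 and did not pass (adjusted p of 0.0517, 0.0585, and 0.0789 by limma). *Fdps*, which joins the isoprene units, was 314, 320, and 332 RPKM in *ptges*-KO and 295, 301, and 284 in scramble cells. It was the only 1 of the 7 with a positive value, 0.14 (adjusted p = 0.256 by limma).

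Of the 10 genes from squalene to cholesterol, 6 were lower in *ptges*-KO cells. *Lss*, which closes the sterol ring by making lanosterol, was 51.4, 46.3, and 46.4 RPKM in *ptges*-KO and 71.4, 70.6, and 75.1 in scramble cells. All 3 knockout samples lay below all 3 controls, with a log2 fold change of -0.58 ± 0.08 (SE, n = 3 and 3) and an adjusted p of 0.000148 by limma. *Cyp51*, the lanosterol demethylase, was 99.9, 89.5, and 91.1 RPKM against 128, 134, and 130 in scramble cells, a log2 fold change of -0.48 (adjusted p = 0.00174 by limma). *Dhcr7*, the reductase of the last step, was 48.3, 39.5, and 40.8 RPKM against 61.0, 68.8, and 60.7, again without overlap (-0.56, adjusted p = 0.00163 by limma). *Hsd17b7* and *Nsdhl*, which act together in the removal of methyl groups from the sterol, fell by 0.50 and 0.35 on the log2 scale (adjusted p of 0.00257 and 0.0103 by limma).

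The largest fall was that of *Tm7sf2*, a sterol reductase on chromosome 19 of GRCm38 (6062821 to 6068373, minus strand). It was 8.78, 7.03, and 10.1 RPKM in *ptges*-KO and 19.4, 16.9, and 16.9 in scramble cells, so that each knockout sample was well below each control. The log2 fold change was -0.97 ± 0.13 (SE, n = 3 and 3), with an adjusted p of 0.000151 by limma. Other genes of the route did not pass the test. *Sqle*, the squalene epoxidase and a rate-limiting enzyme, was 223, 195, and 194 RPKM in *ptges*-KO and 209, 204, and 208 in scramble cells, so the control values lay inside the knockout range. Its log2 fold change was -0.02, with a 95% interval of -0.23 to 0.18. *Ebp*, the sterol isomerase, had 0.02 (-0.16 to 0.19), while *Fdft1*, the squalene synthase, and *Sc5d*, the desaturase, had -0.20 and -0.30 with adjusted p of 0.0788 and 0.0502 by limma.

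**Figure D2:**
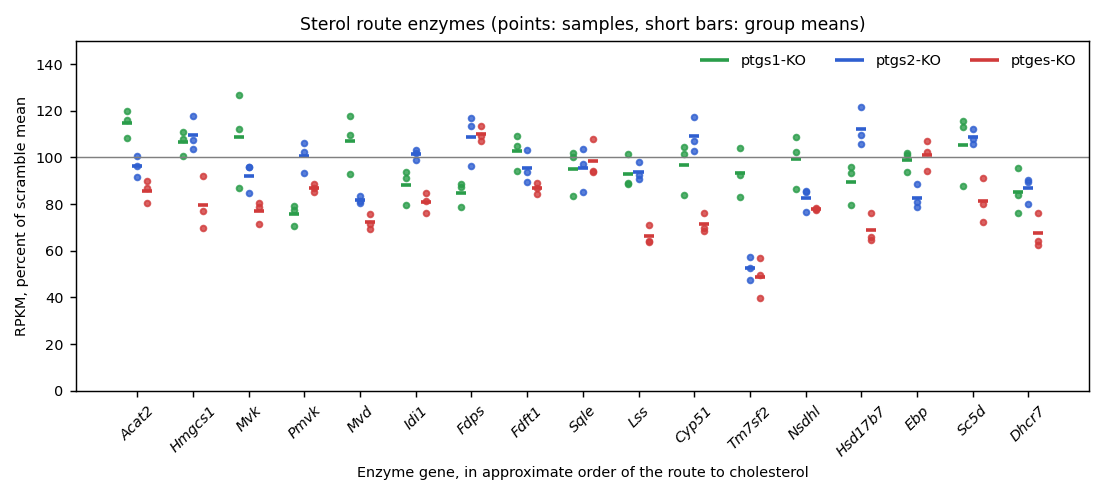
RPKM of the 17 sterol route enzymes in each knockout sample as a percent of the scramble mean of that gene, in approximate order of the route. Points are samples, short bars are group means, and the gray line is the scramble mean; *Tm7sf2* is the lowest in both *ptgs2*-KO and *ptges*-KO cells, and *Fdps*, *Sqle*, and *Ebp* of *ptges*-KO cells lie near or above the line.

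The regulators of the route included 4 of 6 that were lower in *ptges*-KO cells. *Srebf1*, which codes for SREBP-1, lies on chromosome 11 (60199089 to 60222581, minus strand) and was 162, 133, and 133 RPKM in *ptges*-KO and 222, 259, and 225 in scramble cells. The groups did not overlap, and the log2 fold change was -0.72 ± 0.12 (SE, n = 3 and 3), with an adjusted p of 0.000908 by limma. The values are per gene and do not separate the SREBP-1a and SREBP-1c transcripts. *Insig1*, itself a target of the SREBPs, was 98.3, 81.3, and 81.7 RPKM against 123, 127, and 123 in scramble cells (-0.52, adjusted p = 0.000850 by limma). *Insig2*, its paralog, went the other way without passing the test, at 32.1, 30.3, and 29.8 RPKM in *ptges*-KO and 26.3, 25.3, and 27.3 in scramble cells (0.22, adjusted p = 0.0572 by limma). These samples did not overlap either. *Stard4*, a sterol carrier, had -0.20 (adjusted p = 0.156 by limma).

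*Srebf2*, which codes for SREBP-2, was 285, 213, and 223 RPKM in *ptges*-KO and 307, 340, and 323 in scramble cells. All 3 knockout samples were lower, but *ptges*-KO replicate 1 was nearer to the controls than to the other two, and the log2 fold change was -0.44 ± 0.13 (SE, adjusted p = 0.0216 by limma). The call was lost without scramble replicate 2 or 3 (adjusted p of 0.0744 and 0.0588) or *ptges*-KO replicate 2 or 3 (0.0957 and 0.0755). Over the 22 alternative analyses its adjusted p by limma ran from 0.00455 to 0.0957. *Scap* was 66.0, 49.5, and 42.1 RPKM against 66.7, 76.2, and 74.7, with replicate 1 just below the lowest control (-0.48, adjusted p = 0.0395 by limma). It kept its call in 12 of the 22 alternatives, with an adjusted p from 0.00616 to 0.159, and lost it without any 1 of scramble replicates 1 to 3, *ptges*-KO replicates 2 and 3, *ptgs1*-KO replicate 2, and *ptgs2*-KO replicate 2.

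Among the 5 genes of fatty acid synthesis, elongation, and activation, 3 had lower RNA levels in *ptges*-KO cells. *Fasn*, the fatty acid synthase on chromosome 11 (120805846 to 120824547, minus strand), was 250, 187, and 182 RPKM in *ptges*-KO and 302, 311, and 343 in scramble cells. No knockout sample reached the lowest control, and the log2 fold change was -0.64 ± 0.13 (SE, n = 3 and 3), with an adjusted p of 0.00323 by limma. *Elovl6*, which lengthens palmitate to stearate, was 51.0, 40.0, and 34.02 RPKM against 64.6, 59.5, and 70.1 in scramble cells, again without overlap (-0.64, adjusted p = 0.00675 by limma). *Acaca*, the acetyl-CoA carboxylase that supplies malonyl-CoA, was 67.1, 53.7, and 49.8 RPKM against 71.0, 73.3, and 82.0 (-0.41, adjusted p = 0.0266 by limma). Its call was lost without *ptges*-KO replicate 2 or 3 (0.0902 and 0.107) or scramble replicate 2 or 3 (0.0558 and 0.103), and its adjusted p ran from 0.000291 to 0.107 over the 22 alternatives. *Acly*, the ATP citrate lyase that makes cytosolic acetyl-CoA, and *Acsl3*, which activates fatty acids, had -0.19 and -0.20 and did not pass (adjusted p of 0.124 and 0.128 by limma).

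The desaturases, which place double bonds in fatty acids, include the most abundant member, and 1 of 4 was lower in *ptges*-KO cells. *Fads2*, the Δ6 desaturase of polyunsaturated fatty acids, was 261, 208, and 209 RPKM in *ptges*-KO and 290, 321, and 295 in scramble cells, without overlap (-0.42, adjusted p = 0.0139 by limma). It lost its call without scramble replicate 2 or *ptges*-KO replicate 2 or 3 (0.0577, 0.0642, and 0.0569), with 0.00280 to 0.0642 over the 22 alternatives. *Scd2*, a stearoyl-CoA desaturase and that most abundant member, was 1223, 895, and 896 RPKM in *ptges*-KO and 1076, 1153, and 1154 in scramble cells. Replicate 1 was the highest and replicates 2 and 3 the lowest of the 6 samples, and the difference of -0.18 had a 95% interval of -0.46 to 0.09. *Scd1* was 341, 260, and 256 RPKM against 281, 313, and 313, with the same order and a difference of -0.09 (-0.35 to 0.16). *Fads1*, the Δ5 desaturase, was 72.5, 60.9, and 62.5 RPKM against 70.1, 73.1, and 71.8 (-0.14, -0.33 to 0.06).

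*Abca1*, which exports cholesterol to lipid-poor apolipoproteins, lies on chromosome 4 (53030787 to 53159895, minus strand). It was 34.6, 26.8, and 27.1 RPKM in *ptges*-KO and 48.7, 53.5, and 53.7 in scramble cells. The groups were far apart, and the log2 fold change was -0.80 ± 0.13 (SE, n = 3 and 3), with an adjusted p of 0.000695 by limma. *Abcg1*, the partner exporter, was listed at 0 in all 12 samples.

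**Figure D3:**
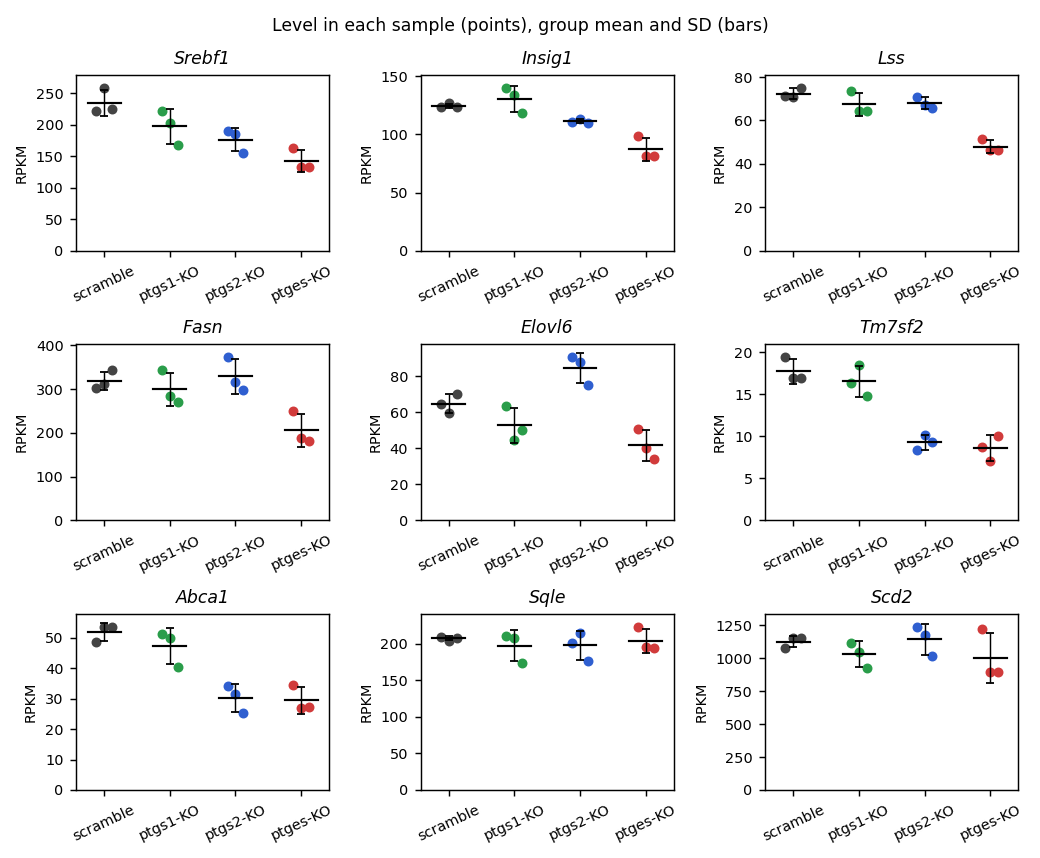
RPKM of 9 members in each sample, with group means (long bars) and SD (error bars), n = 3 in each group, and every axis starting at 0. *Tm7sf2* and *Abca1* are low in *ptgs2*-KO and *ptges*-KO cells, *Lss* and *Fasn* are lowest in *ptges*-KO cells, *Elovl6* is highest in *ptgs2*-KO cells, and *Sqle* and *Scd2* overlap between all groups.

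Replicate 1 of the *ptges*-KO cells stood apart within its group. It was the highest of the 3 samples in 27 of the 33 members, against 54.9% of all genes tested. In *ptgs1*-KO cells replicate 3 was the lowest in 27 of 33, against 67.5% of all genes tested. Deviations of the genes tested from their mean over all 12 samples correlated across genes with transcript length. The r was 0.17 in *ptges*-KO replicate 1, -0.27 in replicate 2, and -0.36 in replicate 3, and 0.46 in *ptgs2*-KO replicate 1. Because the mean is over all groups, these values also hold differences between the lines. The members were long, with a median transcript of 3698 bases against 3147 for all genes tested with a match. In an alternative chosen after seeing the data, the trends with length and GC content were removed together from each sample, so their separate parts were not measured. In *ptges*-KO against scramble cells this gave 22 members lower and 1 higher, against 17.6% and 20.2% of all genes tested, and the member that became higher was *Fdps* (0.19, adjusted p = 0.00802 by limma).

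The correction made several differences smaller and others larger. Among those that grew were *Idi1* (-0.31 to -0.38), *Nsdhl* (-0.35 to -0.43), and *Hmgcs1* (-0.32 to -0.38). *Fasn*, with a transcript of 10050 bases, went from -0.64 to -0.36 and *Srebf2* from -0.44 to -0.24, both still with an adjusted p under the threshold (0.000195 and 0.0171 by limma). *Scap* went from -0.48 to -0.28 and lost its call (0.0558). *Tm7sf2*, *Abca1*, *Lss*, and *Insig1* changed less, to -0.87, -0.71, -0.52, and -0.56, although the transcript of *Abca1* has 10262 bases. With median-ratio scaling 19 members were lower and 1, *Insig2*, higher, against 15.2% and 18.2% of all genes tested, and the median over all genes tested moved from -0.03 to 0.01.

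**Figure D4:**
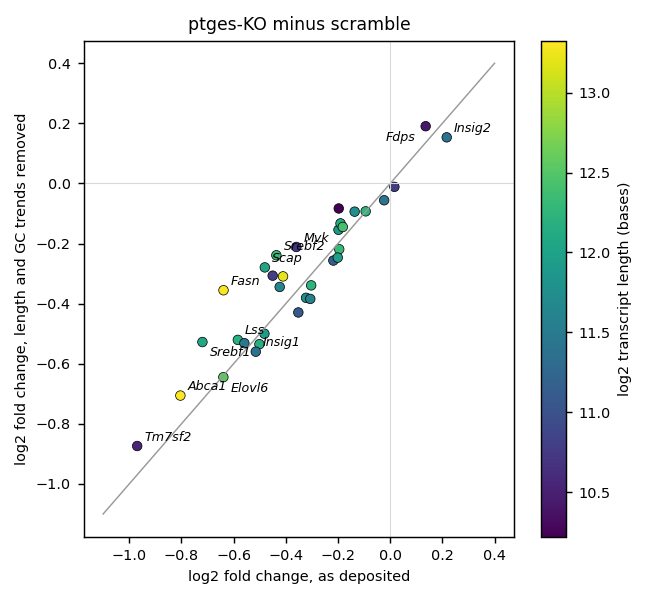
Log2 fold change of each of the 33 members in *ptges*-KO against scramble cells as deposited (horizontal axis) and with length and GC trends removed (vertical axis), colored by log2 transcript length. Points above the gray line of equality below 0 became smaller, as did *Fasn* (-0.64 to -0.36), while *Elovl6* and *Tm7sf2* stayed near the line.

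In *ptgs2*-KO cells 4 of the 33 members were lower than in scramble cells and 0 higher, against 5.17% and 5.97% of all genes tested. At an unadjusted p under 0.05, 6 were lower and 1 higher, a threshold at which the share of all genes was not computed. *Tm7sf2* was 8.40, 10.2, and 9.37 RPKM in *ptgs2*-KO cells, below all 3 scramble samples, with a log2 fold change of -0.86 ± 0.13 (SE, n = 3 and 3) and an adjusted p of 0.000848 by limma. *Abca1* was 34.2, 31.5, and 25.2 RPKM, also below all scramble samples (-0.77, adjusted p = 0.00218 by limma). Both kept their calls in all 22 alternatives. *Srebf1* was 189, 185, and 155 RPKM, below the lowest control of 222 (-0.41, adjusted p = 0.0426 by limma), and *Ebp* was 47.1, 53.2, and 48.6 RPKM against 57.7, 64.9, and 57.3 (-0.27, adjusted p = 0.0490 by limma). *Srebf1* kept its call in 11 of the 22 alternatives (adjusted p from 0.00386 to 0.158) and *Ebp* in 7 (0.0171 to 0.182). Without any 1 scramble or *ptgs2*-KO sample, or without *ptgs1*-KO replicate 2 or *ptges*-KO replicate 2 or 3, the 2 members called in place of 4 were *Tm7sf2* and *Abca1*. In these fits 721 to 1158 genes of the whole table were called in place of 1257.

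The median log2 fold change of the members in *ptgs2*-KO cells was 0.01, as it was over all genes tested (0.01), and 16 of 33 were below 0 (48.3% of all genes tested). *Lss* was 71.0, 66.9, and 65.8 RPKM, *Fasn* 373, 316, and 298, and *Hmgcs1* 139, 122, and 127, each overlapping with scramble cells. *Elovl6* was 90.7, 87.7, and 75.4 RPKM, above all scramble samples, but its log2 fold change of 0.38 had an adjusted p of 0.117 by limma. In 8 of the 33 members (24.2%) all *ptgs2*-KO samples lay below all scramble samples, against 15.8% of all genes tested. These were the 4 called members and *Mvd*, *Nsdhl*, *Dhcr7*, and *Insig1*, which did not pass the test (-0.28, -0.27, -0.20, and -0.16, with adjusted p of 0.0647, 0.0649, 0.222, and 0.252 by limma). With length and GC trends removed, 6 members were lower (*Tm7sf2*, *Abca1*, *Srebf1*, *Ebp*, *Nsdhl*, and *Insig1*) and 1 was higher (*Fdps*), against 9.49% and 13.4% of all genes tested.

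In *ptgs1*-KO cells 1 of the 33 members was lower and 0 higher, against 4.61% and 4.65% of all genes tested. At an unadjusted p under 0.05, 4 were lower and 2 higher, again without a computed share of all genes. *Pmvk*, the phosphomevalonate kinase, was 44.3, 49.6, and 48.6 RPKM against 67.8, 59.4, and 61.3 in scramble cells, without overlap (-0.40, adjusted p = 0.00570 by limma), and it kept its call in all 22 alternatives. The number of calls depended on the treatment of length and GC: with their trends removed, 2 members were higher (*Acat2* and *Insig2*) and 8 lower (*Pmvk*, *Idi1*, *Fdps*, *Lss*, *Hsd17b7*, *Srebf1*, *Srebf2*, and *Fasn*), against 9.44% and 9.73% of all genes tested. In that analysis *Srebf1* had -0.32 and *Srebf2* -0.29. Without *ptgs2*-KO replicate 1, *Fdps* was called beside *Pmvk*, or 2 members in place of 1. As deposited, *Srebf1* was 221, 203, and 167 RPKM in *ptgs1*-KO cells (-0.26, adjusted p = 0.216 by limma), and *Abca1* was 51.3, 49.9, and 40.5 (-0.14, 95% interval -0.42 to 0.14).

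The 3 comparisons above share the scramble samples, so the lines were also compared with each other. Between *ptges*-KO and *ptgs2*-KO cells 14 members were lower and 1, *Ebp*, higher in *ptges*-KO cells, against 9.84% and 6.76% of all genes tested. *Elovl6* differed most, with 51.0, 40.0, and 34.02 RPKM in *ptges*-KO and 90.7, 87.7, and 75.4 in *ptgs2*-KO cells (-1.02 ± 0.15, SE, adjusted p = 0.000386 by limma). No sample of one line reached the other. *Fasn* (-0.68), *Hsd17b7* (-0.66), *Cyp51* (-0.60), and *Lss* (-0.49) were also lower in *ptges*-KO cells, with adjusted p of 0.00305, 0.000472, 0.000421, and 0.000644 by limma. These 5 genes kept their calls in all 22 alternatives, and the other 10 lost theirs in at least 1. The number of members called fell from 15 to 9 without *ptgs2*-KO replicate 1, 7 without *ptges*-KO replicate 2, and 6 without *ptges*-KO replicate 3. The calls over the whole table fell from 1873 to 1201, 1107, and 1187 in the same order. Over all genes tested, median-ratio scaling turned 763 higher and 1110 lower into 1290 and 1208, while the members went from 1 and 14 to 2 (*Ebp* and *Insig2*) and 14, against 11.4% and 10.7% of all genes tested.

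*Tm7sf2*, *Abca1*, and *Srebf1* were called lower than in the shared scramble samples in both *ptges*-KO and *ptgs2*-KO cells. The difference between these 2 lines was -0.11 for *Tm7sf2* (95% interval -0.38 to 0.17) and -0.04 for *Abca1* (-0.32 to 0.24), and the samples overlapped. *Tm7sf2* and *Abca1* were lower in each of these lines than in *ptgs1*-KO cells. For *Tm7sf2* the log2 fold changes against *ptgs1*-KO were -0.77 in *ptgs2*-KO and -0.87 in *ptges*-KO cells (adjusted p of 0.000707 and 0.000210 by limma). For *Abca1* they were -0.63 and -0.66 (0.00324 and 0.00185). *Srebf1* had a difference of -0.31 between *ptges*-KO and *ptgs2*-KO cells (95% interval -0.57 to -0.05, adjusted p = 0.101 by limma).

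Between *ptges*-KO and *ptgs1*-KO cells 20 members were lower and 1 higher in *ptges*-KO cells, against 17% and 13.2% of all genes tested. *Insig1* (-0.58), *Mvd* (-0.54), *Lss* (-0.48), and *Acat2* (-0.42) were among the lower ones, with adjusted p of 0.000221, 0.000620, 0.000428, and 0.00127 by limma. *Fdps* was the higher one, with 314, 320, and 332 RPKM against 256, 260, and 231 in *ptgs1*-KO cells, without overlap (0.37, adjusted p = 0.00466 by limma). The number of members called fell from 21 to 10 without *ptgs1*-KO replicate 1, 13 without *ptgs1*-KO replicate 2, 11 without *ptges*-KO replicate 2, and 12 without *ptges*-KO replicate 3. The calls over the whole table fell from 3409 to 2759, 2779, 2302, and 2473 in the same order. Of the 21, 9 kept their calls in all 22 alternatives. With length and GC trends removed, 1494 higher and 1915 lower genes over the whole table became 2370 and 2026, or 21% and 18% of those tested, while the members called were 2 (*Fdps* and *Pmvk*) and 20.

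Between *ptgs2*-KO and *ptgs1*-KO cells 4 members were higher and 5 lower in *ptgs2*-KO cells, against 12.1% and 11.6% of all genes tested. The higher ones were *Elovl6* (0.68), *Pmvk* (0.40), *Fdps* (0.35), and *Hsd17b7* (0.31), and the lower ones *Tm7sf2*, *Abca1*, *Mvd* (-0.37), *Acat2* (-0.25), and *Ebp* (-0.25). With length and GC trends removed 8 were higher and 9 lower, against 20% and 16.4% of all genes tested. *Acat2*, *Hsd17b7*, and *Ebp* each lost the call in some of the 22 alternatives, with an adjusted p by limma of up to 0.0910, 0.121, and 0.108. The samples whose removal ended a call were *ptgs1*-KO replicates 1 and 3 and *ptgs2*-KO replicates 1 and 2 for *Acat2*, *ptgs1*-KO replicates 2 and 3, *ptgs2*-KO replicates 1 and 2, and *ptges*-KO replicate 2 for *Hsd17b7*, and *ptgs1*-KO replicates 1 and 2 and *ptgs2*-KO replicates 1 and 3 for *Ebp*. The other 6 kept theirs in all 22. Over all 4 groups, 23 of the 33 members had an adjusted p under 0.05 by the F test of limma, against 38.6% of all genes tested.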

How the data were processed

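The authors deposited RPKM values to 2 decimals for 30705 gene names, made from 101 bp paired-end reads. The legends of the paper give the unit RPKM, its methods say normalized counts, and the near-equal sums (878504 to 903881 per sample) leave another scaling to a fixed total possible. The submitters' processing notes name mm10; aligner, counter, and annotation are not given in the sources used here. The labels name an unstranded and a directional library kit, so strandedness is uncertain, and overlapping genes may share reads.

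Samples were grouped by title. Genes whose mean over samples reached 1 RPKM were put on the scale log2(RPKM + 1), that is with 1 as the pseudocount, and fitted by lmFit and eBayes with a trend in limma 3.58.1 (R 4.3.3), all 12 samples in the model. In each of 6 comparisons p was adjusted over 11282 genes after Benjamini-Hochberg, and genes below 0.05 were called. Since fold changes are on the log2(RPKM + 1) scale, they understate low genes. Alternatives were a pseudocount of 0.1, no filter or a filter at 10, median-ratio scaling, quantile normalization, a replicate block, only the groups compared, eBayes without trend, and each sample left out; removal of length and GC trends (loess, span 0.3) was added after seeing the data. Length and GC came from the longest GENCODE transcript, matched for 94.8% of genes tested and 100% of members tested. Scripts were tested on simulated data. Figures were drawn with matplotlib 3.10.9 in Python 3.11.15.

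Members and lists were chosen with earlier results of these data known. All members were given by role. Values per sample were given for up to 8 called, non-overlapping members of largest change per knockout and for *Srebf1*, *Srebf2*, *Insig1*, *Scd1*, *Scd2*, *Fads1*, *Fads2*, *Abca1*, *Abcg1*, *Sqle*, *Hmgcs1*, and *Fasn*, and up to 3 called genes from each list of other fatty acid genes and liver X receptor genes; a list of other sterol genes is not reported here. Other members shown by sample were chosen after their values were seen. P-values measure the spread between samples that a legend of the paper calls subclones and its results text calls independent samples. No interval from counting was computed, as read counts were not part of the values used.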

Additional observations from a re-analysis of the deposited data

How the results depend on the processing

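No call of a member turned its direction. The 22 alternatives gave 1313 results on the same side of the threshold among called genes, 161 that lost it, and 141 that newly passed. In *ptges*-KO against scramble cells, *Sc5d*, *Hmgcs1*, and *Acat2*, not called in the main fit, passed in 10, 7, and 5 of the 22. For *ptgs1*-KO against scramble cells the 1 called member became 2 with median-ratio scaling, 2 with quantile normalization, and 10 with length and GC trends removed, and 1 to 2 with each sample left out. Over all genes tested 1045 calls became 1521, 1570, and 2163 in these settings, and 639 to 1161 with each sample left out. For *ptgs2*-KO against scramble cells the 4 called members became 2 without a filter on low values, 2 without a mean-variance trend, and 7 with length and GC trends removed, and 2 to 6 with each sample left out. Here 1257 calls over all genes became 1311, 1172, and 2578, and 721 to 1552 with each sample left out. The setting without a filter tested 18623 genes. For *ptges*-KO against scramble cells the 17 became 16 to 23, and 13 to 22 with each sample left out. All genes called went from 2969 to between 2169 and 4264, and to between 1945 and 3271 with each sample left out. The 2169 were of 7957 genes that passed the filter at 10. Against *ptgs2*-KO cells the 15 became 6 to 18, and against *ptgs1*-KO cells the 21 became 10 to 25, with each sample left out. The whole-table counts became 1107 to 2236 (from 1873) and 2302 to 3564 (from 3409). For *ptgs2*-KO against *ptgs1*-KO cells the 9 became 17 with length and GC trends removed, and 6 to 10 with each sample left out. The calls over all genes went from 2665 to 4110, and to 1991 to 2835 with each sample left out. Where these counts moved, the cause was not tested.

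Samples carry replicate numbers, but nothing in the sources states that a number marks shared handling, and of 18 same-numbered pairs 5 had a correlation of deviations over 0.1 (range -0.341 to 0.566), so the numbers were not taken as pairs. With the replicate number as a block the member counts were 1, 3, 19, 18, 21, and 9, in the order *ptgs1*-KO, *ptgs2*-KO, and *ptges*-KO against scramble, *ptges*-KO against *ptgs2*-KO, *ptges*-KO against *ptgs1*-KO, and *ptgs2*-KO against *ptgs1*-KO. Over all genes tested, 1045, 1257, 2969, 1873, 3409, and 2665 calls became 1105, 1365, 3099, 2011, 3561, and 2771. With the block and length and GC trends removed together the member counts were 10, 7, 23, 18, 23, and 16. The counts over all genes were then 2057, 2484, 4228, 2921, 4336, and 4063. With 3 samples per group, the standard errors of the members' differences were 0.0746 to 0.158 on the log2 scale, and differences as large as 0.38 (*Elovl6* in *ptgs2*-KO against scramble cells) did not pass. Values listed at 0 can be failed estimates.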

Other observations

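Genes of the same pathways outside the list were read from further lists. Of 15 other fatty acid pathway genes tested, 2 had higher levels in *ptges*-KO cells and 0 lower, against 11.9% and 14.4% of all genes tested. At an unadjusted p under 0.05 they were 4 and 0, and the share of all genes was not computed. *Fabp5*, a fatty acid carrier, was 40.9, 51.7, and 53.9 RPKM in *ptges*-KO, 24.7, 19.2, and 20.0 in scramble, 21.5, 27.4, and 27.4 in *ptgs2*-KO, and 11.9, 14.1, and 10.5 in *ptgs1*-KO cells. It was higher in *ptges*-KO and lower in *ptgs1*-KO than in scramble cells (1.16 and -0.76, adjusted p of 8.82e-05 and 0.00404 by limma). *Oxsm*, of mitochondrial fatty acid synthesis, was higher in *ptgs2*-KO and *ptges*-KO cells (0.66 and 0.50, adjusted p of 0.00441 and 0.00926 by limma), and *Mid1ip1*, a partner of acetyl-CoA carboxylase, was higher in *ptgs1*-KO cells (0.58, adjusted p = 0.00356 by limma). Of 4 liver X receptor genes and targets tested outside the list, 2 were lower in *ptges*-KO cells and 1 in *ptgs2*-KO cells, against 14.4% and 5.17% of all genes tested. *Lpcat3*, which remodels phospholipids, was lower in *ptgs2*-KO and *ptges*-KO cells (-0.46 and -0.49, adjusted p of 0.0105 and 0.00314 by limma). *Apoe*, a lipid-carrying apolipoprotein, was called lower in *ptges*-KO cells alone (-0.62, adjusted p = 0.00516 by limma). Its group means were 7.05 RPKM in scramble, 5.16 in *ptgs1*-KO, 5.21 in *ptgs2*-KO, and 4.20 in *ptges*-KO cells, so the mean was below scramble in every knockout line. The receptor gene *Nr1h2* and *Mylip* had 0.09 and 0.13 in *ptges*-KO cells and 0.06 and -0.15 in *ptgs2*-KO cells, and neither passed.

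Of 5 fibroblast markers, *Dcn* and *Lum* were listed at 0 in all 12 samples, and *Col1a1* and *Col1a2* reached at most 1.10 and 0.43 RPKM. *Pdgfra* was the only 1 that passed the filter, with group means of 8.08 RPKM in scramble, 10.4 in *ptgs1*-KO, 3.77 in *ptgs2*-KO, and 5.36 in *ptges*-KO cells. The summed level of the 5 was 8.34 to 8.89 RPKM in scramble, 10.8 to 12.5 in *ptgs1*-KO, 3.78 to 4.98 in *ptgs2*-KO, and 5.03 to 6.01 in *ptges*-KO cells. Of 14 markers of leukocytes, endothelium, epithelium, and adipocytes, 6 were at 0 in all samples and none was above 1.09 RPKM.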
